A study of Homo sapiens with 12 samples.

Results

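The dual-specificity MAPK phosphatases, also called MKPs, were followed at the mRNA level in PC9 and H1650 cells exposed to EGFR inhibitors. The family was taken as DUSP1, DUSP2, DUSP4, DUSP5, DUSP6, DUSP7, DUSP8, DUSP9, DUSP10 and DUSP16, matched by gene symbol to 10 of the 60591 rows of the count table. All 10 members were among the 19108 genes that passed the filter on low counts and were tested.

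MAP kinases such as ERK, JNK and p38 are switched on when a threonine and a tyrosine in their activation loop are phosphorylated, and MKPs switch them off by removing both phosphates. The family is usually divided by where its members act and what they act on. DUSP1, DUSP2, DUSP4 and DUSP5 are inducible nuclear enzymes, DUSP6, DUSP7 and DUSP9 are cytoplasmic and prefer ERK, and DUSP8, DUSP10 and DUSP16 prefer JNK and p38. Several MKP genes are themselves transcribed in response to ERK activity, which makes them part of the negative feedback on the RAS-RAF-MEK-ERK pathway downstream of EGFR.

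PC9 and H1650 are established non-small cell lung cancer lines that both carry an activating deletion in EGFR, and the labels give the genotype of all samples as wild-type. Cells of each line, grown in RPMI with serum, were collected when drug was added (T0, 0.1% DMSO, 0 h) or after 36 h with 10 μM erlotinib, a first-generation EGFR inhibitor, or 0.1 μM osimertinib, a third-generation inhibitor that binds EGFR covalently. Each of the 6 groups held 2 libraries of polyadenylated RNA, 12 in all. Vehicle-treated cells of 36 h were not analysed here, and the action of a drug and 36 h in culture cannot be told apart in any comparison with T0. The study calls the 2 libraries of a group biological replicates, the labels name no culture for either, and p-values measure the spread between these libraries.

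Between 17961765 and 26346187 reads were counted on genes in each library. A count of 0 allows up to 3 reads, or 0.116 to 0.168 normalized CPM (counts scaled by library size), depending on the library, and this limit covers counting error only. The summed level of 5 epithelial markers was 5166 to 9156 CPM in every library, while that of 7 markers of blood, endothelium and fibroblasts was at most 4.20 CPM, in PC9 most of it from CDH5 and PECAM1, and 1 to 4 of the 7 had no read in either library of a group. Mitochondrial genes took 4.36% to 5.36% of the counts at T0 and 5.77% to 7.20% after either drug. The part of this shift in the results below was not tested. In bulk RNA, fewer cells of a type and less RNA per cell cannot be told apart.

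At T0 the lines differed in which MKP had the highest level. In PC9 cells DUSP4, an inducible nuclear phosphatase, had the highest level per kilobase of transcript in the family, at 34.6 ± 0.52 CPM per kb (SD, n = 2). In H1650 cells the place was taken by DUSP1, a nuclear phosphatase of the immediate early response, at 122 ± 12.8 CPM per kb. The level of DUSP4 in H1650 was 1.14 ± 0.033 CPM per kb, and that of DUSP1 in PC9 was 6.72 ± 0.94 CPM per kb. Of the summed level of the 10 members per kb, DUSP4 made up 43.0 ± 0.40% in PC9 and 0.744 ± 0.047% in H1650, whereas DUSP1 made up 8.36 ± 1.1% in PC9 and 79.8 ± 1.1% in H1650. The sum itself was 80.7 and 80.0 CPM per kb in the PC9 T0 libraries and 163 and 143 in those of H1650.

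The comparison of H1650 with PC9 at T0 called 7 of the 10 members, 2 higher and 5 lower in H1650, while 69.6% of all tested genes were called. A gene was called when its adjusted p was under 0.05 in edgeR's quasi-likelihood test, adjusted over all tested genes. DUSP1 was higher in H1650, with a log2 fold change and standard error of 4.19 ± 0.11 (adjusted p = 5.96e-23), and DUSP4 was lower by a log2 fold change of -4.93 ± 0.10 (adjusted p = 8.51e-25). DUSP2, a nuclear phosphatase best known from activated leukocytes, was also lower, at -4.05 ± 0.39, as were the ERK-selective DUSP6 at -2.86 ± 0.24 and DUSP7 at -1.05 ± 0.10. Of these, DUSP2 passed the filter on low counts only through its PC9 reads. DUSP8 was lower at -0.76 ± 0.25 and DUSP16 higher at 0.44 ± 0.09, both JNK and p38 phosphatases. Without the second H1650 T0 library, DUSP8 was at -0.54 and no longer called (adjusted p = 0.108). DUSP5, DUSP9 and DUSP10 were not called, with 95% intervals of the log2 difference of -0.05 to 0.42, -0.21 to 0.85 and -0.56 to 0.11. For DUSP10 the call rested on single libraries, since it was called without the first PC9 T0 library (-0.46, adjusted p = 0.0258) and without the first H1650 T0 library (-0.53, adjusted p = 0.0112), and its sign turned without the second library of either group (0.05 and 0.03).

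**Figure D1:**
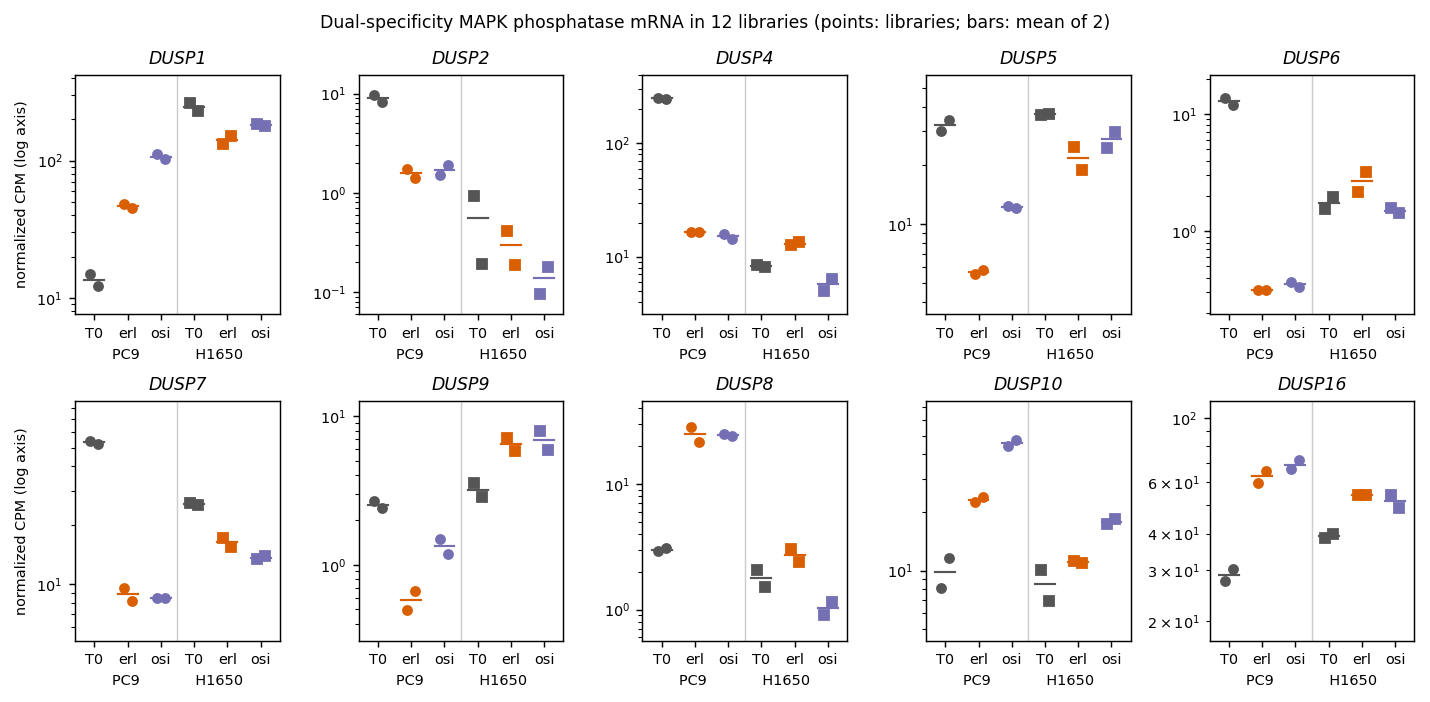
Normalized CPM of the 10 members in each of the 12 libraries, on a log axis that differs between panels. Circles are PC9 and squares are H1650 libraries, at T0 and after 36 h with erlotinib (erl) or osimertinib (osi), and bars are the means of 2 libraries. DUSP4 fell from 254 and 249 CPM at T0 to between 14.5 and 16.5 CPM in the treated PC9 libraries, and DUSP1 was higher in every H1650 library than in any PC9 library.

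In PC9 cells, every member differed in level between T0 and 36 h with erlotinib. Of the 10, 4 rose and 6 fell, where 61.8% of all tested genes were called, and the median log2 fold change of the members was -2.31 beside 0.07 over all tested genes. With osimertinib, 61.4% of genes were called and again 4 members rose and 6 fell, with a median of -1.16 beside 0.06. The rises were DUSP1, DUSP8, DUSP10 and DUSP16 with each drug, and the falls were DUSP2, DUSP4, DUSP5, DUSP6, DUSP7 and DUSP9. Both comparisons use the same T0 libraries and are therefore not independent. Over the same libraries the summed level of 8 proliferation markers went from 2274 and 2364 CPM at T0 to 249 to 277 CPM after either drug, and all 8 were called lower. The part of this change in the MKP levels was not tested.

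The largest fall was that of DUSP6, a cytoplasmic phosphatase highly selective for ERK and a common readout of the pathway. In PC9 its level was 13.6 and 12.04 CPM at T0, 0.314 and 0.312 CPM with erlotinib and 0.370 and 0.336 CPM with osimertinib. The treated libraries held 6 to 8 DUSP6 reads each, against 270 and 244 at T0, so the groups lay far apart but the treated level is known only roughly. Summed over both libraries there were 15 reads with erlotinib (95% Poisson interval 8.40 to 24.7) and 14 with osimertinib (7.65 to 23.5). The log2 fold change was -5.33 ± 0.32 with erlotinib (adjusted p = 2.15e-14) and -5.15 ± 0.33 with osimertinib (adjusted p = 5.95e-14). On GRCh38 an exon of DUSP6 (chr12:89347232-89353271, minus strand) overlaps the antisense gene AC024909.2. Whether counting used strand is not given in the sources used here, so reads of this pair may not have been told apart.

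DUSP7, a close relative of DUSP6, was the most uniform of the cytoplasmic group. It went from 54.2 and 51.9 CPM at T0 to 9.54 and 8.20 CPM with erlotinib and 8.46 and 8.47 CPM with osimertinib. These are falls of 6.00-fold and 6.27-fold, with log2 fold changes of -2.58 ± 0.11 and -2.65 ± 0.12. DUSP9, the third cytoplasmic member, was low throughout, at 2.67 and 2.42 CPM at T0, 0.493 and 0.664 CPM with erlotinib and 1.48 and 1.18 CPM with osimertinib. Its groups did not overlap, and its log2 fold changes were -2.11 ± 0.34 and -0.92 ± 0.30 (adjusted p = 0.00897 for osimertinib). Without the second osimertinib library of PC9 the latter was -0.78 and not called (adjusted p = 0.0652).

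Among the inducible nuclear members, DUSP4 lost most. From 254 and 249 CPM at T0 it reached 16.5 and 16.4 CPM with erlotinib. With osimertinib it was 15.2 ± 1.1 CPM (SD, n = 2), from 346 and 258 reads against 5041 in each T0 library. Every treated library lay far under both T0 libraries, and the falls were 15.3-fold and 16.5-fold (log2 fold changes -3.93 ± 0.09 and -4.04 ± 0.10, adjusted p = 7.96e-23 and 6.65e-23). DUSP2 went from 9.73 and 8.14 CPM to 1.75 and 1.41 CPM with erlotinib and 1.53 and 1.91 CPM with osimertinib, with log2 fold changes of -2.50 ± 0.33 and -2.39 ± 0.33. DUSP5, which is nuclear and acts on ERK alone, fell from 30.1 and 34.0 CPM to 5.51 and 5.78 CPM with erlotinib, but only to 12.3 and 12.1 CPM with osimertinib. Its log2 fold changes were -2.50 ± 0.14 and -1.39 ± 0.13.

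DUSP1 was the exception in this group. In PC9 it rose from 14.9 and 12.2 CPM at T0 to 48.6 and 45.0 CPM with erlotinib and 111 and 103 CPM with osimertinib. The groups were separate, and the rises were 3.46-fold and 7.91-fold (log2 fold changes 1.79 ± 0.11 and 2.98 ± 0.11, adjusted p = 2.28e-14 and 1.61e-19). DUSP1 can act on all 3 classes of MAP kinase and is known as a gene of stress as well as of growth factor signaling.

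All 3 of the JNK and p38 phosphatases rose in PC9 with both drugs, as DUSP1 did. Of the 19108 tested genes, 6244 were called higher with erlotinib and 6252 with osimertinib. DUSP8 had the steepest rise of the family with erlotinib, from 2.92 and 3.06 CPM to 28.5 and 21.4 CPM, and stood at 24.7 and 24.1 CPM with osimertinib. The log2 fold changes were 3.06 ± 0.18 and 3.02 ± 0.18 (adjusted p = 1.67e-14 and 2.21e-14). DUSP10, also called MKP5, rose from 8.17 and 11.6 CPM to 22.6 and 23.9 CPM with erlotinib and 44.0 and 47.4 CPM with osimertinib, log2 fold changes of 1.23 ± 0.15 and 2.21 ± 0.14. DUSP16, or MKP7, went from 27.4 and 30.3 CPM to 59.9 and 65.9 CPM and to 66.5 and 71.6 CPM, log2 fold changes of 1.13 ± 0.09 and 1.26 ± 0.09. Genes named as pseudogenes of DUSP8 and DUSP5 had their own rows, with 26 to 87 reads per library for DUSP8P5 and at most 26 for DUSP5P1 and 2 for DUSP5P2. Counting may have divided reads between these rows and their parent genes, so the levels of DUSP8 and DUSP5 carry that uncertainty. It is larger for DUSP8, which itself had only 58 and 62 reads in the PC9 T0 libraries and 19 to 59 in those of H1650. DUSP5 had at least 123 reads in every library.

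**Figure D2:**
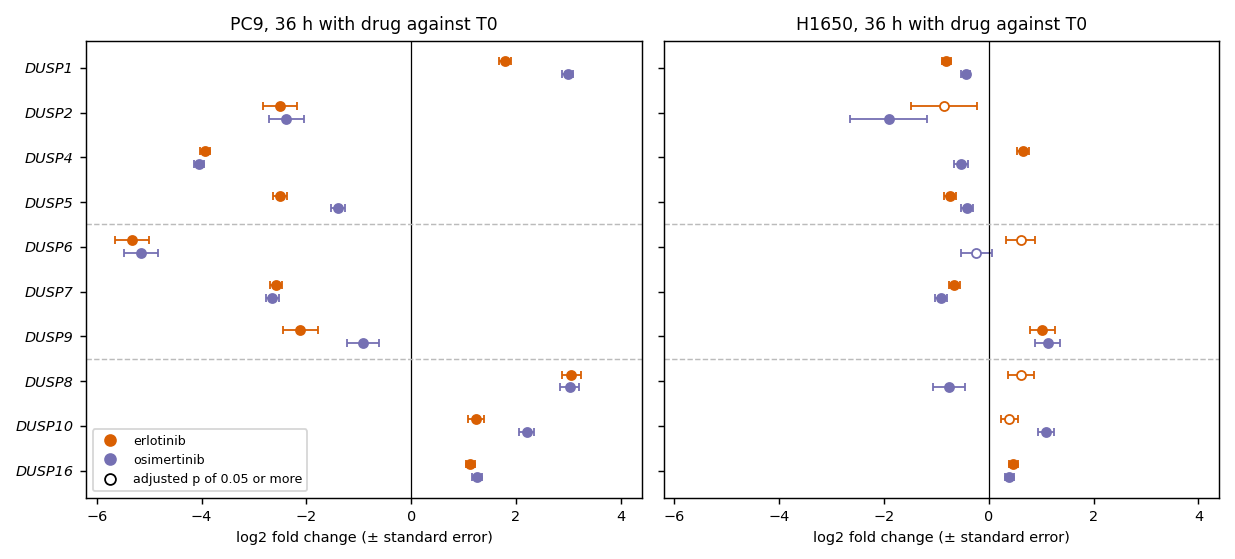
Log2 fold changes of the 10 members after 36 h with erlotinib (orange) or osimertinib (purple) against T0, in PC9 (left) and H1650 (right), with standard errors as bars and open circles for adjusted p of 0.05 or more. Dashed lines part the nuclear, the cytoplasmic ERK-selective and the JNK and p38 groups. In PC9 the values run from -5.33 (DUSP6) to 3.06 (DUSP8), and in H1650 from -1.91 (DUSP2, osimertinib) to 1.12 (DUSP9, osimertinib).

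Promoter windows of 300 bases, 250 before and 50 after a transcription start in RefSeq (GRCh38.p14), were given for 8 of the 10 members, 10 windows in all. None was given for DUSP4 or DUSP5, both of which fell in PC9. Both strands were searched for 5 motifs. These were the ETS core CCGGAA, in 17.2% of the 35116 windows of all genes, the AP-1 site TGANTCA, in 7.71%, the cyclic AMP response element (CRE) TGACGTCA, in 1.85%, the FOXO site GTAAACA, in 3.42%, and the CArG box, in 1.29%. The motifs do not overlap in any member window. The CRE was found in the windows of DUSP1, starting 125 bases before the start, and DUSP8, starting 118 and 74 bases before it, and the other 8 windows held none of the 5 motifs. Members whose windows lacked the element both rose and fell in PC9, as DUSP10 and DUSP16 rose and DUSP2, DUSP6, DUSP7 and DUSP9 fell. The windows of DUSP1 and DUSP8 are shown because they hold the element, and that of DUSP7 as one of those that do not. Each is the 250 bases upstream on the minus strand, 5′ to 3′, with the CRE in capitals. They lie at chr5:172771196-172771445, chr11:1572272-1572521 and chr3:52056572-52056821.
DUSP1: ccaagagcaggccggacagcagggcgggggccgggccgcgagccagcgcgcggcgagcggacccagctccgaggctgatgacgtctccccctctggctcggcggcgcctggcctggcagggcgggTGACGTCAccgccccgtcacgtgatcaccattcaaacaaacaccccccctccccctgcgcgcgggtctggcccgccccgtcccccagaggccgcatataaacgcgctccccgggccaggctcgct
DUSP8: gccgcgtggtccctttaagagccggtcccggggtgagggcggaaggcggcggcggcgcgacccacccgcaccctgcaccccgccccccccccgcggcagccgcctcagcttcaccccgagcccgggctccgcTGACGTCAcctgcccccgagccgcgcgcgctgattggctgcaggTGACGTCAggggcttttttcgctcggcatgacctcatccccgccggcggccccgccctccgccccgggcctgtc
DUSP7: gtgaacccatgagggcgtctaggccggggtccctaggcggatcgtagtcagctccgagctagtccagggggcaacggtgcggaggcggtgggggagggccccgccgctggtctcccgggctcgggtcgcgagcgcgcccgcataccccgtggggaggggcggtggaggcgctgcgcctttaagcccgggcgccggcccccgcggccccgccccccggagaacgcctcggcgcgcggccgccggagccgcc
A match is a stretch of letters and does not say that a factor was bound there in these cells.

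In H1650 cells the median size of the members' log2 fold changes, taken without sign, was 0.66 with erlotinib and 0.65 with osimertinib, where it had been 2.50 and 2.52 in PC9. Over all tested genes the same measure was 0.35 and 0.33 in H1650 and 0.69 and 0.71 in PC9, so it was smaller in H1650 over all genes too. With erlotinib 3 members rose, 3 fell and 4 were not called, beside 36.5% of all tested genes. With osimertinib 3 rose and 6 fell, beside 35.7% of all genes, and DUSP6 was not called. DUSP2, among the 6 that fell, passed the filter on low counts only through its PC9 reads. The median log2 fold change of the members was 0.43 with erlotinib and -0.43 with osimertinib, and that of all genes was 0.01 and 0.00. Here too both drugs share their T0 libraries. Proliferation markers summed to 2312 and 2334 CPM at T0, 1359 and 1500 CPM with erlotinib and 1298 and 1337 CPM with osimertinib, and all 8 were lower with each drug. The part of this change in the MKP levels was not tested.

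DUSP1 went down in H1650. Its level was 265 and 228 CPM at T0, 131 and 150 CPM with erlotinib and 185 and 178 CPM with osimertinib, with no overlap between groups. The log2 fold changes were -0.81 ± 0.09 (adjusted p = 1.99e-08) and -0.44 ± 0.09 (adjusted p = 1.57e-04). Even the lowest H1650 library thus remained above the highest PC9 library.

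DUSP4 moved in opposite directions with the 2 drugs. From 8.44 and 8.10 CPM at T0 it rose to 12.6 and 13.5 CPM with erlotinib (log2 fold change 0.66 ± 0.12, adjusted p = 4.89e-05) and fell to 4.96 and 6.41 CPM with osimertinib (-0.53 ± 0.13, adjusted p = 0.00184). Without the first osimertinib library of H1650, the fall was -0.36 and was not called (adjusted p = 0.0866). DUSP5 fell with both drugs, from 36.4 and 36.5 CPM to 24.9 and 19.0 CPM with erlotinib and 24.6 and 29.8 CPM with osimertinib, where the treated groups overlapped. The log2 fold changes were -0.74 ± 0.12 and -0.42 ± 0.12, and the second was lost without the same osimertinib library (-0.29, adjusted p = 0.129). DUSP2 was near the limit of counting in H1650, with 20 and 5 reads at T0, 8 and 4 with erlotinib and 2 and 4 with osimertinib. The H1650 reads alone were too few for the filter on low counts. DUSP2 was tested because of its PC9 reads, 193 and 165 at T0. In H1650 it was called lower with osimertinib (log2 fold change -1.91 ± 0.74, adjusted p = 0.0394). That call was lost without the first T0 library (-0.46, adjusted p = 0.777) and without either osimertinib library (-1.56, adjusted p = 0.187, and -2.42, adjusted p = 0.0718). With erlotinib DUSP2 was not called (-0.85 ± 0.63), became called without the second T0 library (-1.65, adjusted p = 0.0294) and turned to 0.59 without the first.

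Of the cytoplasmic members in H1650, DUSP6 was at 1.54 and 1.97 CPM at T0, 2.17 and 3.21 CPM with erlotinib and 1.58 and 1.43 CPM with osimertinib. Neither difference from T0 was called, and the 95% intervals were 0.05 to 1.18 and -0.85 to 0.38 on the log2 scale. Without the first erlotinib library of H1650, the erlotinib difference was 0.87 and passed the threshold (adjusted p = 0.0389). DUSP7 fell from 26.0 and 25.3 CPM to 17.1 and 15.5 CPM with erlotinib and 13.4 and 13.9 CPM with osimertinib (log2 fold changes -0.65 ± 0.11 and -0.91 ± 0.11). DUSP9, an ERK phosphatase encoded on the X chromosome, rose from 3.54 and 2.86 CPM to 7.12 and 5.87 CPM with erlotinib and 7.97 and 5.92 CPM with osimertinib. Its log2 fold changes were 1.02 ± 0.23 and 1.12 ± 0.23 (adjusted p = 8.51e-04 and 2.92e-04), and the 2 drugs overlapped.

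The JNK and p38 phosphatases did not share 1 direction in H1650, where 1 rose and 2 were not called with erlotinib and 2 rose and 1 fell with osimertinib. DUSP16 rose slightly with both drugs, from 38.6 and 39.9 CPM to 54.3 and 54.5 CPM and to 54.1 and 49.1 CPM (log2 fold changes 0.47 ± 0.09 and 0.39 ± 0.09). DUSP10 stood at 10.1 and 6.95 CPM at T0, 11.2 and 10.99 CPM with erlotinib and 17.4 and 18.5 CPM with osimertinib, and only the osimertinib rise was called (1.09 ± 0.15, adjusted p = 1.64e-06). The erlotinib value of DUSP10 was 0.39 ± 0.16 (adjusted p = 0.0564), and 0.67 without the first T0 library (adjusted p = 0.00380). DUSP8 was low, at 2.05 and 1.50 CPM at T0, 3.04 and 2.37 CPM with erlotinib and 0.907 and 1.16 CPM with osimertinib. The erlotinib difference was not called (0.62 ± 0.25, adjusted p = 0.0542), but was 0.78 and called without the second erlotinib library of H1650 (adjusted p = 0.0425) and 0.84 without the first T0 library (adjusted p = 0.0349). With osimertinib DUSP8 was called lower (-0.76 ± 0.30, adjusted p = 0.0468), a call that DESeq2 did not make (-0.78, adjusted p = 0.0549) and that was lost without the first T0 library (-0.54, adjusted p = 0.292) and without either osimertinib library of H1650 (-0.60 and -0.95, adjusted p = 0.239 and 0.0672). PC9 libraries enter these values only through the shared scaling and spread and the filter, which sets the genes over which p is adjusted. The erlotinib rise of DUSP10 was called without any 1 of the T0 or erlotinib libraries of PC9 (0.39 in each case, adjusted p from 0.0394 to 0.0495), and that of DUSP8 without either erlotinib library of PC9 (0.61, adjusted p = 0.0422 and 0.0403). The osimertinib fall of DUSP8 lost its call without either osimertinib library of PC9 (-0.76, adjusted p = 0.0542 and 0.0539).

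Whether the lines differed in their response was tested by the drug-by-line difference, the log2 fold change in H1650 minus that in PC9. For erlotinib it was called for 9 of the 10 members, 5 positive and 4 negative, beside 40.8% of all tested genes. For osimertinib it was again called for 9, 5 positive and 4 negative, beside 41.9%. DUSP2 was the member not called with either drug, with intervals of 0.11 to 3.20 and -1.36 to 2.31. The 5 positive differences were DUSP4, DUSP5, DUSP6, DUSP7 and DUSP9, and the 4 negative ones DUSP1, DUSP8, DUSP10 and DUSP16. DUSP6 differed most with erlotinib, by 5.94 ± 0.44 (adjusted p = 5.77e-12), since it fell in PC9 and had no called change in H1650. DUSP4 differed by 4.59 ± 0.15 with erlotinib and 3.51 ± 0.17 with osimertinib. For DUSP1 the difference was -2.60 ± 0.14 and -3.42 ± 0.14, the gene being higher after drug in PC9 and lower in H1650. DUSP9 went the other way, lower in PC9 and higher in H1650, and differed by 3.14 ± 0.41 and 2.05 ± 0.38. DUSP10 had an erlotinib difference of -0.84 ± 0.22, which without the first H1650 T0 library was -0.54 and not called (adjusted p = 0.0556). Without that library the erlotinib difference of DUSP2 was 3.12 and was called (adjusted p = 0.00265).

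**Figure D3:**
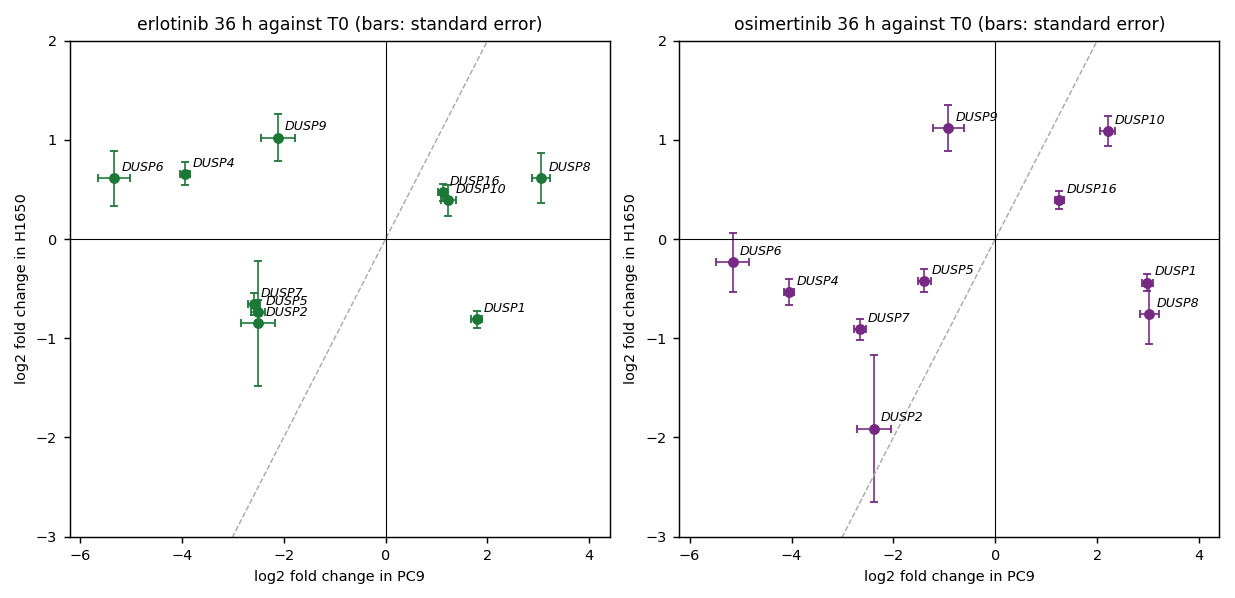
Log2 fold change of each member in PC9 (x axis) and H1650 (y axis) for erlotinib (left) and osimertinib (right) against T0, with standard errors. The dashed line marks equal change in both lines and the axes have different ranges. DUSP6 and DUSP4 lie far to the left at -5.33 and -3.93 with erlotinib and above zero in H1650, and DUSP1 lies to the right in PC9 and below zero in H1650 with both drugs.

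By direction, 3 members were called in the same direction in both lines with erlotinib, DUSP5 and DUSP7 lower and DUSP16 higher, as were 24.4% of all tested genes. Another 3 were called in opposite directions, DUSP1, DUSP4 and DUSP9, as were 4.4% of all genes. With osimertinib 6 members shared a direction, DUSP2, DUSP4, DUSP5 and DUSP7 lower and DUSP10 and DUSP16 higher, and DUSP1, DUSP8 and DUSP9 were opposed, beside 24.3% and 4.19% of all genes. DUSP2 was tested in H1650 only because its PC9 reads passed the filter. Several of these calls rest on single libraries. Without the first osimertinib library of H1650, 3 members shared a direction with osimertinib, DUSP7, DUSP10 and DUSP16, and 2 were opposed, DUSP1 and DUSP9. Without the second osimertinib library of PC9, DUSP1 alone was opposed. With erlotinib, 5 members shared a direction without the first T0 library of H1650 or without either erlotinib library of PC9, since DUSP8 and DUSP10 were then called. DUSP7 and DUSP16 were thus called in 1 direction in all 4 comparisons, as was DUSP5, whose osimertinib call in H1650 was among those lost (-0.29, adjusted p = 0.129). For DUSP7 the changes were nevertheless unequal between lines, by 1.93 ± 0.16 and 1.74 ± 0.16.

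The 2 drugs were also set against each other in each line. Their doses differ, 10 μM erlotinib and 0.1 μM osimertinib, so a difference belongs to these doses. In PC9, 4 members were higher with osimertinib, none were lower and 6 were not called, beside 16.6% of all tested genes. DUSP1 was higher by a log2 fold change of 1.19 ± 0.09 (adjusted p = 1.18e-10), DUSP5 by 1.11 ± 0.15 (adjusted p = 3.76e-06) and DUSP10 by 0.97 ± 0.13 (adjusted p = 3.21e-06). DUSP9 was higher by 1.19 ± 0.38 (adjusted p = 0.0265), but lost the call without the first or the second erlotinib library of PC9 (1.01 and 1.43, adjusted p = 0.159 and 0.0510) and without the first osimertinib library (1.01, adjusted p = 0.201). The intervals for DUSP4 (-0.33 to 0.11), DUSP7 (-0.33 to 0.20), DUSP8 (-0.32 to 0.26) and DUSP16 (-0.04 to 0.31) leave room for a log2 difference of at most 0.33 in size. Those of DUSP2 (-0.66 to 0.90) and DUSP6 (-0.97 to 1.32) are wide because few reads were counted.

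In H1650, 4 members differed between the drugs, 2 higher and 2 lower with osimertinib, beside 8.75% of all tested genes. DUSP4 was lower by a log2 fold change of -1.19 ± 0.12 (adjusted p = 9.81e-08) and DUSP8 by -1.38 ± 0.28 (adjusted p = 0.00145). DUSP10 was higher by 0.70 ± 0.15 (adjusted p = 0.00230). DUSP1 was higher by 0.37 ± 0.09 (adjusted p = 0.00558), and lost the call without the first erlotinib library (0.27, adjusted p = 0.127) or the first osimertinib library (0.34, adjusted p = 0.0675). DUSP5 and DUSP6 were not called, at 0.31 ± 0.12 and -0.85 ± 0.29, and both were called without the first erlotinib library (0.52, adjusted p = 0.0236, and -1.10, adjusted p = 0.0377). Between osimertinib and erlotinib, DUSP1 and DUSP10 were higher in both lines.

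After treatment the lines could be compared at the same drug and time. With erlotinib all 10 members differed between H1650 and PC9, 5 higher and 5 lower in H1650, beside 72.1% of all tested genes. With osimertinib the counts were the same, beside 71.6%. All 3 cytoplasmic ERK phosphatases were higher in H1650 and all 3 JNK and p38 phosphatases were lower, with either drug. DUSP6 had been 7.25-fold lower in H1650 than in PC9 at T0 and was 8.50-fold higher with erlotinib (log2 3.09 ± 0.37) and 4.17-fold higher with osimertinib (2.06 ± 0.42). DUSP8 was lower in H1650 by -3.20 ± 0.18 with erlotinib and -4.55 ± 0.21 with osimertinib. The 30.4-fold lead of PC9 in DUSP4 at T0 came down to 1.26-fold with erlotinib and 2.67-fold with osimertinib. The first of these was lost without the first erlotinib library of H1650 (log2 -0.29, adjusted p = 0.0570). That of DUSP16 with erlotinib (-0.21 ± 0.09) was lost without the second erlotinib library of PC9 (-0.14, adjusted p = 0.237) and without either erlotinib library of H1650 (-0.20 and -0.22, adjusted p = 0.0983 and 0.0755).

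**Figure D4:**
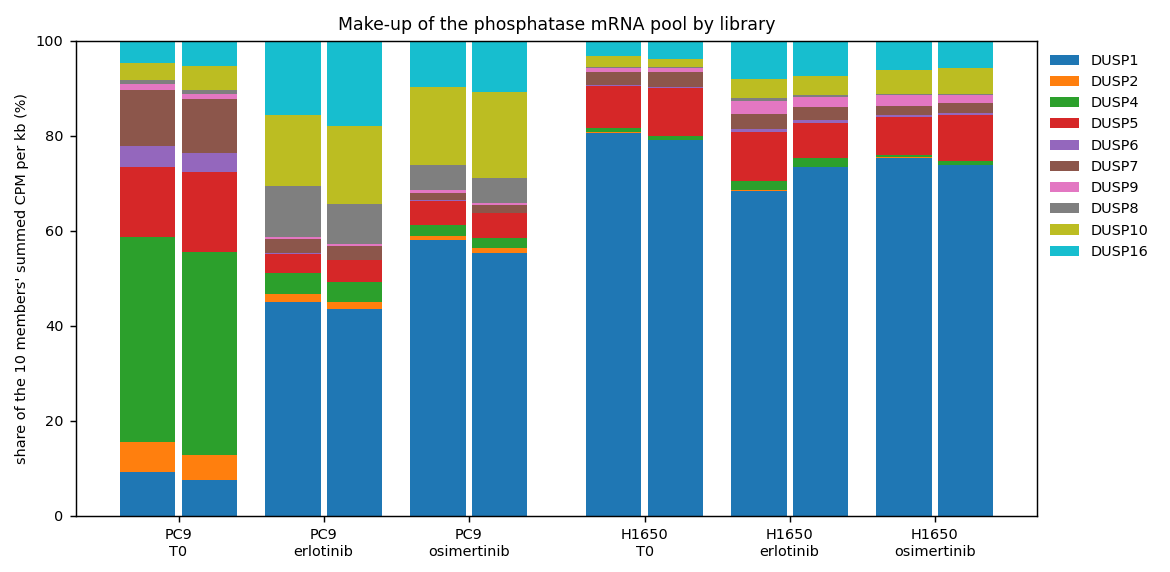
Share of each member in the summed CPM per kb of the 10 members, one bar per library, in percent. In PC9 the DUSP4 share (green) goes from 43.0% at T0 to 4.32% with erlotinib and 2.23% with osimertinib, while DUSP1 (blue) is the largest share in every treated PC9 library and in every H1650 library.

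The make-up of the MKP mRNA pool changed with these shifts, more in PC9 than in H1650. These shares are descriptions of mean CPM per kb over 2 libraries, without a test. In PC9 DUSP1 went from 8.36% of the pool at T0 to 44.3 ± 1.1% with erlotinib and 56.7 ± 2.0% with osimertinib. The cytoplasmic ERK phosphatases together went from 16.9 ± 0.70% to 3.53 ± 0.13% and 2.20 ± 0.047%. The JNK and p38 phosphatases went from 10.1 ± 1.5% to 42.1 ± 1.1% and 32.8 ± 1.9%. In H1650 DUSP1 held 79.8% at T0, 70.9 ± 3.4% with erlotinib and 74.6 ± 1.1% with osimertinib. There the JNK and p38 phosphatases went from 5.80 ± 0.041% to 12.3 ± 0.68% and 11.4 ± 0.0026%, and the ERK phosphatases from 4.02 ± 0.25% to 6.02 ± 0.61% and 4.38 ± 0.35%. The summed level in PC9 was 53.6 and 51.4 CPM per kb with erlotinib, under both T0 libraries, and 95.05 and 92.5 with osimertinib, above both. In H1650 it was 95.4 and 102 with erlotinib and 122 and 120 with osimertinib, all under the T0 libraries.

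The rest of the pathway was described from gene lists, each beside the all-gene medians given above and the share of all tested genes called, which was 61.8% with erlotinib and 61.4% with osimertinib in PC9 and 36.5% and 35.7% in H1650. Of 15 other genes that ERK is known to induce, 14 fell and 1 rose in PC9 with each drug, with median log2 fold changes of -3.22 with erlotinib and -3.40 with osimertinib. In H1650, 9 rose and 4 fell with erlotinib, with a median of 0.57, and 2 rose and 7 fell with osimertinib, with a median of -0.29. SPRY4, a feedback inhibitor of RAS signaling, went in PC9 from 22.1 and 25.8 CPM at T0 to at most 0.0896 CPM in any treated library, under the limit that a count of 0 allows. The 1 riser was EGR1, an immediate early transcription factor, at 0.78 ± 0.11 with erlotinib and 2.35 ± 0.10 with osimertinib. In H1650 EGR1 fell, by -2.57 ± 0.10 and -1.56 ± 0.09, so that it moved in the same directions as DUSP1 in all 4 comparisons. ETV1, an ETS transcription factor, had the largest rise of the list in H1650 with erlotinib (2.16 ± 0.12), and FOSL1, an AP-1 subunit, the largest fall (-2.75 ± 0.13).

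Of 8 AP-1 and ATF factors, 6 rose and 1 fell in PC9 with erlotinib and 7 rose with osimertinib, with medians of 0.68 and 1.65. In H1650, 2 rose and 6 fell with erlotinib and 3 rose and 3 fell with osimertinib, with medians of -0.66 and -0.11. ATF3, a stress-induced factor, had the largest rise in PC9 with erlotinib (3.54 ± 0.14) and JUN the only fall (-0.58 ± 0.11). In H1650 JUND rose most (0.44 ± 0.10) and JUN fell most (-1.78 ± 0.12).

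The MAP kinase genes, not all of which encode known MKP substrates, had medians nearer to 0. With erlotinib, 8 of 10 in PC9 and 4 of 10 in H1650 were called, beside 61.8% and 36.5% of all genes. Of the 10 MAP kinase genes, 3 rose and 5 fell in PC9 with erlotinib, with a median of -0.20, and 2 rose and 2 fell in H1650, with a median of 0.01. MAPK3, which encodes ERK1, rose most in PC9 (0.89 ± 0.08), where MAPK13, which encodes p38 delta, fell most (-0.79 ± 0.07). In H1650 MAPK13 rose most (0.75 ± 0.07) and MAPK9, which encodes JNK2, fell most (-0.27 ± 0.08). With osimertinib 2 MAP kinase genes rose and 5 fell in PC9, and 2 rose and 4 fell in H1650. Of 7 MAP kinase kinase genes, 2 rose and 3 fell in PC9 and 2 rose and 2 fell in H1650 with erlotinib. Their extremes in both lines were MAP2K6 (1.59 ± 0.27 in PC9 and 1.00 ± 0.18 in H1650) and MAP2K3 (-1.67 ± 0.08 and -0.48 ± 0.08), both of which encode activators of p38. With osimertinib 2 rose and 4 fell in PC9, and 1 rose and 3 fell in H1650.

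Other phosphatases were described in the same way. Of 16 genes listed as atypical dual-specificity phosphatases, 12 were tested. With erlotinib 5 rose and 2 fell in PC9, and 1 rose and 4 fell in H1650. The medians were 0.40 and -0.16. DUSP19 rose most (1.68 ± 0.20) and DUSP12 fell most (-0.86 ± 0.12) in PC9, and in H1650 these were DUSP28 (0.44 ± 0.18, adjusted p = 0.0492) and DUSP14 (-0.74 ± 0.09). With osimertinib 4 rose and 2 fell in PC9, and 2 rose and 3 fell in H1650. Of 8 other phosphatases that act on MAP kinases, 6 were tested. With erlotinib 3 rose and 3 fell in PC9, and none rose and 2 fell in H1650. PTPRR, a tyrosine phosphatase of ERK, rose most in PC9 (1.92 ± 0.14), and PPP2CA, a catalytic subunit of PP2A, fell most in both lines (-0.88 ± 0.07 and -0.26 ± 0.07). With osimertinib 3 rose and 2 fell in PC9, and none rose and 2 fell in H1650.

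The marker lists gave the following extremes with erlotinib. Among proliferation markers CDK1 fell most in PC9 (-3.69 ± 0.09) and MKI67 in H1650 (-0.97 ± 0.10). Among epithelial markers KRT19 rose (0.41 ± 0.07) and EPCAM fell most (-0.96 ± 0.07) in PC9, while EPCAM rose (0.23 ± 0.07) and KRT8 fell most (-0.44 ± 0.07) in H1650. The endothelial gene CDH5 was at 0.655 and 0.691 CPM in PC9 at T0 and 2.42 and 2.55 CPM with erlotinib, and at most 0.312 CPM in any H1650 library. PECAM1 went from 1.58 and 1.61 CPM to 0.269 and 0.273 CPM in PC9.

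The genes whose pattern was most like that of each member were found by Pearson's r of log2 CPM over the 12 libraries, among 10293 or 10294 genes with a mean of at least 10 CPM. These values are descriptions, since the 12 points share 6 groups and any gene that parts the lines or the drugs in the same way scores high. DUSP1 was most like USP9X (r = 0.991), FSTL1 (0.990) and JUNB (0.987). DUSP4 was closest to BICD1 (0.986), CEP41 (0.983) and TFDP1 (0.981), and the genes most like DUSP2 included BAX (0.973) and AURKAIP1 (0.972). CKAP4 (0.977), GNG4 (0.974) and RAP1GAP2 (0.973) came nearest to DUSP5. Those most like DUSP6 included PASK (0.984) and ARF6 (0.981), and those most like DUSP7 were ODF2 (0.995), TENT4A (0.994) and TMEM201 (0.993). DUSP9 was nearest to PDE4D (0.973), ELOVL6 (0.972) and CDC42EP4 (0.972). DUSP8 had RNF141 (0.988), CTF1 (0.983) and TPRA1 (0.980), DUSP10 had CRIPT (0.976), GTF2B (0.975) and DDX60L (0.969), and DUSP16 had TFDP2 (0.990), FAM214A (0.989) and ARSD (0.987). Within the family, DUSP6 and DUSP7 were the closest pair (r = 0.935), followed by DUSP2 and DUSP4 (0.881), and the highest r of DUSP1 with another member was 0.430.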

How the data were processed

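PC9 and H1650 cells were profiled by RNA-seq in 6 groups of 2 libraries. Reads went through the DolphinNext pipeline, and the authors deposited raw featureCounts read counts, 1 whole number per gene and library. The submitters' processing notes name GRCh38 and DESeq2. The aligner, annotation and strandedness are not given in the sources used here. A gene length in bases was deposited beside the counts and was used for CPM per kb. Groups follow the GEO labels.

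Tests used edgeR 4.0.16 under R 4.3.3 (TMM factors 0.941 to 1.08, expression filter by group, 19108 genes kept and 41483 left out). The quasi-likelihood fit had 6 group terms over all 12 libraries, which left 6 residual degrees of freedom beside 20.7 prior ones, and a biological coefficient of variation of 0.0656. Two-sided tests were adjusted by Benjamini-Hochberg over all tested genes, and an adjusted p under 0.05 was called. Intervals of log2 differences are 95% intervals from these fits, not adjusted for multiple tests. CPM errors are the SD of 2 libraries. The members and gene lists were chosen with earlier results of these data known. All members are named, with the 3 most alike genes of each (some are not reported here) and, from each list, the largest called change in each direction in each line with erlotinib. STYXL2 and DUSP29 were matched by older symbols. Gene positions are those of GENCODE 29 on GRCh38. Replicate libraries of every group differed by more than sampling noise. Same-numbered libraries did not deviate together (15 pairs of groups, correlations -0.067 to 0.095), so the numbers were not taken to pair samples. The procedure was tested on simulated data. Alternatives were upper quartile and RLE normalization, DESeq2 1.42.0, no filter (at least 1 count), a minimum of 10 counts in each library, a threshold of 0.01, 1 fit per cell line, a replicate block and leaving out each library in turn. The other assays of the study were not analysed here.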

Additional observations from a re-analysis of the deposited data

Results flagged for a closer look

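The response to each drug differed between the lines for 9 of the 10 phosphatases by the test of the difference itself, the drug-by-line term of the edgeR fit. That term was called for 40.8% of all tested genes with erlotinib and 41.9% with osimertinib. As log2 fold change in H1650 minus that in PC9, the erlotinib response was less negative or more positive in H1650 for DUSP4 (4.59), DUSP5 (1.77), DUSP6 (5.94), DUSP7 (1.93) and DUSP9 (3.14). It was lower in H1650 for DUSP1 (-2.60), DUSP8 (-2.44), DUSP10 (-0.84) and DUSP16 (-0.65). With osimertinib the positive differences were DUSP4 (3.51), DUSP5 (0.97), DUSP6 (4.92), DUSP7 (1.74) and DUSP9 (2.05). The negative ones were DUSP1 (-3.42), DUSP8 (-3.78), DUSP10 (-1.12) and DUSP16 (-0.86). The drugs share the T0 libraries of each line, so the 2 sets are not independent. With 2 libraries per group, no search for single outlying libraries was made.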

How the results depend on the processing

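Under 8 settings other than leaving out a library, 789 of 805 log2 fold changes kept their direction and their side of the threshold, 10 lost a call, 6 gained one and none turned direction. Leaving out each library kept 1271 of 1320, with 22 calls lost, 16 gained and 11 turned, none of the turned ones called in the fit of all libraries. The count of members called stayed within 1.5 times in 214 of 215 cases. In H1650 with osimertinib it ranged from 5 to 9 over the left-out libraries, and was 5 without the first osimertinib library. The leave-one-out ranges that cross 0 were -0.53 to 0.049 for DUSP10 between the lines at T0, -1.65 to 0.59 for DUSP2 in H1650 with erlotinib and -0.32 to 1.94 for its osimertinib drug-by-line difference. Between the drugs they were -0.042 to 0.28 for DUSP2, -0.17 to 0.045 for DUSP7 and -0.23 to 0.19 for DUSP8 in PC9, and -0.13 to 0.30 for DUSP9 in H1650. The cause was not tested. DUSP8 in H1650 with osimertinib was not called with DESeq2, upper quartile normalization, no filter, the stricter filter (adjusted p between 0.0516 and 0.0590) or 1 fit per line (adjusted p = 0.0932). DUSP9 between the drugs in PC9 was not called with 1 fit per line (adjusted p = 0.0503). With a replicate block, which the data do not support as a pairing, DUSP8 (0.61, adjusted p = 0.0371) and DUSP10 (0.39, adjusted p = 0.0337) in H1650 with erlotinib and DUSP6 between the drugs in H1650 (-0.84, adjusted p = 0.0453) became called, which took the counts from 6 to 8 and from 4 to 5, and no other call changed. The stricter filter also gained DUSP8 (0.64, adjusted p = 0.0468) and DUSP10 (0.41, adjusted p = 0.0484) in H1650 with erlotinib, and no filter gained the erlotinib drug-by-line difference of DUSP2 (1.69, adjusted p = 0.0472). At an adjusted p under 0.01, the calls over all genes between the drugs went from 3163 to 1930 in PC9 and from 1672 to 912 in H1650. That threshold took away 4 member calls. They were DUSP2 and DUSP8 in H1650 with osimertinib, DUSP9 between the drugs in PC9 and DUSP16 between the lines under erlotinib. The stricter filter left out DUSP2 and DUSP6, so it gave no value for them, and with 6 to 8 reads per treated PC9 library depth limits DUSP6. With 1 fit per line, DUSP2 did not pass the filter in H1650 and had no value there.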
